A study of Mus musculus with 4 samples.

Results

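Retinoic acid is made inside cells from retinol, the circulating form of vitamin A. Retinol is taken up by a membrane receptor, oxidised to retinaldehyde by retinol dehydrogenases and then oxidised to retinoic acid by the retinaldehyde dehydrogenases of the Aldh1a family. Small binding proteins carry the acid in the cytosol, enzymes of the Cyp26 family break it down, and nuclear receptors (RAR and RXR) turn it into changes in transcription. In the gonad it is best known as the signal that leads germ cells into meiosis, through the target gene Stra8.

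The 9 genes described here are Stra6, which encodes the retinol uptake receptor, the retinol dehydrogenase gene Rdh10, the retinaldehyde dehydrogenase genes Aldh1a1, Aldh1a2 and Aldh1a3, the genes of the retinoic acid binding proteins Crabp1 and Crabp2, the breakdown enzyme gene Cyp26b1, and Stra8. They were taken by name for their roles and chosen by counts summed over the 4 libraries, out of 53291 features in the deposited table. Those sums were 1209 for Aldh1a1, 806 for Rdh10, 193 for Aldh1a2, 98 for Crabp2, 24 for Aldh1a3, 11 for Cyp26b1, 7 for Stra6, 6 for Stra8 and 0 for Crabp1. The genes were listed with earlier results of these data known, so the members' differences between groups are given as a description, without p-values.

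RNA was sequenced from spermidine-treated mouse female germline stem cells (2 libraries) and from control cells of the same kind (2 libraries). Spermidine is a natural polyamine, and no dose is stated in the labels. Both groups were cultured cells of C57BL/6 mice at more than 20 passages, profiled at 4 h. Whether each library had its own culture is not stated, so every standard error (SE) below measures the spread between these libraries, which may be technical. The counting intervals of pooled ratios cover counting error only and leave out that spread.

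The spermidine libraries held 787600 and 1718944 counts, and the control libraries 7206176 and 7128901. A single row, AY036118, which lies in a ribosomal RNA gene, took 29.6% and 30.7% of the spermidine counts against 1.68% and 1.64% of the control counts. Counts per kilobase (kb) on olfactory and vomeronasal receptor genes, which these cells have no known use for, were 3.19 in spermidine replicate 1, 0.174 in spermidine replicate 2, and 0.0594 and 0.155 in the controls. These rates are raw counts, not scaled to the library totals. The near values of spermidine replicate 2 and control replicate 2 thus come from 1718944 and 7128901 counts, and per total count the spermidine rate was higher. The receptor rate of a library is set beside some, not all, of the low counts of the same library below. Of 7 germline markers, Ddx4 had 1 and 0 counts in the spermidine libraries and 0 in both controls, and Dazl had 2 and 0 against 0 and 1, on 434 and 432 countable bases. Tex19.1 had 36 and 25 counts in the spermidine libraries against 1955 and 1770 in the controls, Ifitm3 had 72 and 146 against 49 and 132, and Dppa3 had 9 and 263 against 2 and 3. Prdm1 had 11 counts on 3311 countable bases, all in spermidine replicate 1, where the receptor rate was 3.19 counts per kb. Nanos3 had none, on 12 countable bases. Among 7836 genes tested in edgeR (quasi-likelihood, Benjamini-Hochberg), 24.8% were called higher and 3.99% lower in spermidine at an adjusted p under 0.05. The filter on low counts was met through spermidine libraries alone by 1839 genes, 87.2% of them called higher, and in both groups by 5842 genes, 5.8% of them called higher.

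The retinaldehyde dehydrogenase genes stood out among the 9. Aldh1a1 and Aldh1a2 were nearly silent in both control libraries and well counted in both spermidine libraries, at similar levels in each. Crabp2 was also higher, by a smaller factor, while Rdh10 lay above the controls in one spermidine library and below them in the other. Stra6, Crabp1, Cyp26b1 and Stra8 had too few counts to be tested.

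**Figure D1:**
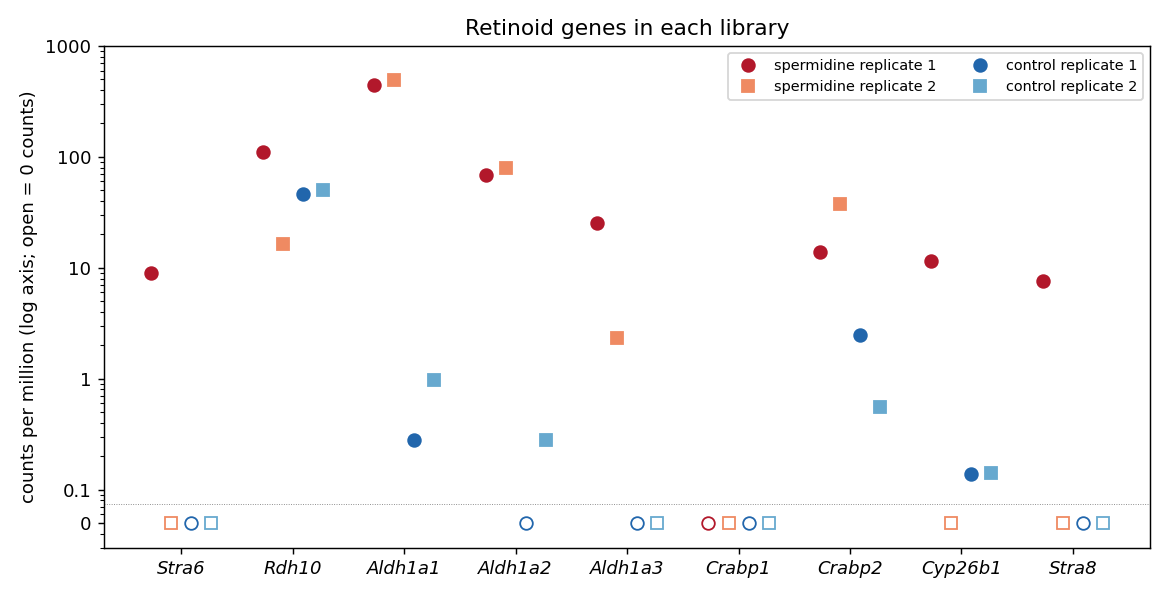
CPM (log axis) of the 9 retinoid genes in each library, with spermidine libraries in red and orange and controls in blue; open symbols mark 0 counts. Aldh1a1 and Aldh1a2 show the widest gaps between groups among genes counted in both spermidine libraries, and Rdh10 shows the spermidine libraries on either side of the controls.

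Aldh1a1 encodes a cytosolic retinaldehyde dehydrogenase. The single transcript row of the gene runs over 13 exons on the plus strand of chromosome 19, from 20601982 to 20643462 (GRCm38). It had 354 and 846 counts in the spermidine libraries, or 449 and 492 CPM (counts scaled to a common library total), against 2 and 7 counts, or 0.278 and 0.982 CPM, in the controls. Both spermidine libraries were far above both controls and close to each other. The pooled CPM was 763 times higher in spermidine (95% counting interval 400 to 1672), and the fitted log2 fold change was 9.53 ± 0.84 (SE, n = 2 libraries per group).

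Aldh1a2 encodes the main retinoic acid producing enzyme of the embryo. The gene lies on the plus strand of chromosome 9, from 71215789 to 71296243 (GRCm38), with 14 exons. It had 54 and 137 counts in the spermidine libraries, or 68.6 and 79.7 CPM, against 0 and 2 counts, or 0 and 0.281 CPM, in the controls. The groups did not overlap, and the spermidine libraries again lay close together. With 2 control counts in all, the pooled CPM ratio was 546, with a 95% counting interval of 149 to 4542. Counts of Aldh1a1 exceeded those of Aldh1a2 by 6.56 times in spermidine replicate 1 and by 6.18 times in replicate 2.

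Aldh1a3, the third gene of the family, spans 66390892 to 66427477 of chromosome 7 on the minus strand (GRCm38). It had 20 and 4 counts in the spermidine libraries (25.4 and 2.33 CPM) and 0 in both controls. Against a floor of 3 counts over the control group, its pooled CPM was at least 45.8-fold higher in spermidine. From each spermidine library alone the bound was 121-fold for replicate 1 and 11.1-fold for replicate 2. The receptor rate would give 10.8 and 0.591 counts on its 3401 bases in the spermidine libraries, and 17.7% of receptor genes had at least as many counts per base in replicate 1. With the receptor rate subtracted, Aldh1a3 no longer passed the low-count filter and was not tested.

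Summed over the Aldh1a genes, the libraries held 543 and 574 CPM in spermidine against 0.278 and 1.26 CPM in control. Aldh1a1 supplied 82.7% and 85.7% of that sum in the spermidine libraries. Per kb of countable sequence, the level of Aldh1a1 was 221 and 242 CPM in spermidine, that of Aldh1a2 was 30.3 and 35.2 CPM, and that of Aldh1a3 was 7.47 and 0.684 CPM. The order Aldh1a1, Aldh1a2, Aldh1a3 thus held in both spermidine libraries, and no pair of neighbours overlapped. Each of the Aldh1a genes has 1 transcript row, none of whose bases another row shares.

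The sequences before the starts of Aldh1a1 and Aldh1a2, the pair with high counts in both spermidine libraries, are shown with that of Stra8, the classical retinoic acid target. RefSeq promoter entries (GRCm38.p6) were matched for 6 of the 9 genes: Aldh1a1, Aldh1a2, Crabp1, Cyp26b1, Stra6 and Stra8. Each sequence gives the 250 bases before the annotated start, 5′ to 3′ on the gene's strand, all plus, and capitals mark matches to the 5 motifs searched on both strands. The windows are chr19:20601718-20601967 for Aldh1a1, at the start nearest to the counted row, chr9:71215539-71215788 for Aldh1a2 and chr6:34920698-34920947 for Stra8. The Stra8 start used lies 785 bases downstream of the start of its transcript rows, so this window falls within the span of those rows.
Aldh1a1: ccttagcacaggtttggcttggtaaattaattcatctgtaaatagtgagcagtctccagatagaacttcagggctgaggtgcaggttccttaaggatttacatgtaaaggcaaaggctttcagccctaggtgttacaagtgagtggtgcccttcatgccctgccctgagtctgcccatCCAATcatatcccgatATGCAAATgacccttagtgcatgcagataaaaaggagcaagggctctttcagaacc
Aldh1a2: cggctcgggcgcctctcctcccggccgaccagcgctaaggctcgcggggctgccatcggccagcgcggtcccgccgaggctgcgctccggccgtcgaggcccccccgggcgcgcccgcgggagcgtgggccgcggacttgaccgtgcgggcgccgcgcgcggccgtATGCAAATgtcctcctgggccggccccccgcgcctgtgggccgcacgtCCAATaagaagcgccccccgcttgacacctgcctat
Stra8: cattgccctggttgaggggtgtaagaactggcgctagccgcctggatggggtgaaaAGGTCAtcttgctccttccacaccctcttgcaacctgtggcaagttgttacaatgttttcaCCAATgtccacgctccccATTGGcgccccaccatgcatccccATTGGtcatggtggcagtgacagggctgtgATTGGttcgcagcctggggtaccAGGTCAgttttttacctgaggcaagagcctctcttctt

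The motifs were the nuclear receptor hexamer AGGTCA, the TATA box TATAAA, the CCAAT box CCAAT, the GC box GGGCGG and the octamer ATGCAAAT, and no matches overlapped in these windows. The octamer, a binding sequence of POU factors, was added after the sequences had been read. It occurred once in the Aldh1a1 window, starting 56 bases before the start, and once in the Aldh1a2 window, 84 bases before it, and 1.6% of 32851 windows of this length held it. Each of these windows also held 1 CCAAT box, a motif in 33.8% of all windows. Stra8 had 2 AGGTCA hexamers, starting 194 and 38 bases before its start (14% of windows held at least 1), and 4 CCAAT boxes. The windows differed in base composition, with 46.4% G and C in Aldh1a1 and 77.6% in Aldh1a2, against a median of 52.4%. A match is a description of these letters only.

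Rdh10, which encodes the retinol dehydrogenase that makes retinaldehyde in the embryo, was the only one of the 9 well counted in the controls. The gene lies on the plus strand of chromosome 1, from 16105882 to 16132550 (GRCm38). It had 87 and 28 counts in the spermidine libraries, or 110 and 16.3 CPM, against 334 and 357 counts, or 46.3 and 50.1 CPM, in the controls. The spermidine libraries fell on either side of the controls, which lay close together. The log2 fold change was 0.20 ± 0.74 (SE, n = 2 per group), and Rdh10 was not called. Leaving out spermidine replicate 2 gave 1.05 ± 0.49, and leaving out spermidine replicate 1 gave -1.33 ± 0.34. At the receptor rate, 7.31 and 0.399 counts would fall on Rdh10 in the spermidine libraries.

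Crabp2 encodes the protein that hands retinoic acid to its nuclear receptor. The gene lies on the plus strand of chromosome 3, from 87948693 to 87953372 (GRCm38). It had 11 and 65 counts in the spermidine libraries, or 14 and 37.8 CPM, against 18 and 4 counts, or 2.5 and 0.561 CPM, in the controls. The groups did not overlap in CPM, though the libraries within each group differed by more than those of Aldh1a1. The log2 fold change was 4.25 ± 1.0 (SE, n = 2 per group). The receptor rate would give 2.87 and 0.156 counts on its 900 bases in the spermidine libraries. Leaving out spermidine replicate 2 gave 3.01 ± 1.04, which was still called. The call was lost on leaving out spermidine replicate 1 (4.84 ± 0.88), control replicate 2 (3.52 ± 1.60) or control replicate 1 (5.67 ± 1.96).

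Levels per kb of countable sequence set the tested genes in order within each library. In the controls Rdh10 was the highest, at 20.2 and 21.8 CPM per kb, followed by Crabp2 at 2.78 and 0.623 and Aldh1a1 at 0.137 and 0.483. In the spermidine libraries Aldh1a1 was the highest, at 221 and 242 CPM per kb. Rdh10 was next in spermidine replicate 1, at 48.1, and Crabp2 next in replicate 2, at 42. The order below Aldh1a1 therefore differed between the spermidine libraries, with Rdh10 at 7.1 CPM per kb in replicate 2 and Crabp2 at 15.5 in replicate 1.

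The remaining genes had at most 11 counts over all libraries, and nearly all of these came from spermidine replicate 1. Stra6 (chromosome 9, 58063793 to 58154004, plus strand) had 7 and 0 counts in the spermidine libraries and 0 in both controls. The receptor rate would give 3.63 counts in spermidine replicate 1 on its 1138 countable bases, and 17.2% of receptor genes were at or above it per base there. Cyp26b1, whose product removes retinoic acid in the fetal testis, had 9 and 0 counts in the spermidine libraries against 1 and 1 in the controls. At the receptor rate 10.4 counts would fall on its 3275 countable bases in spermidine replicate 1, and 38.9% of receptor genes were at or above it. The count of Stra6 was thus above the receptor rate of that library and the count of Cyp26b1 below it.

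Stra8 (chromosome 6, 34920163 to 34939344, plus strand) had 6 and 0 counts in the spermidine libraries and 0 in both controls. Its 6 counts fell on 327 countable bases, where the receptor rate would give 1.04, and 0.938% of receptor genes were at or above it per base. In spermidine replicate 2, the deeper of the pair, Stra8 was not detected, and a floor of 3 counts there is 1.75 CPM. Crabp1 had 0 counts in every library. It has 114 countable bases of a longest row of 802, and 3 counts would be 3.81 and 1.75 CPM in the spermidine libraries, or 0.416 and 0.421 CPM in the controls. Stra6, Cyp26b1, Stra8 and Crabp1 have 10, 4, 3 and 2 overlapping transcript rows, and reads shared between rows were not counted, so these counts do not show how strongly the genes were expressed.

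**Figure D2:**
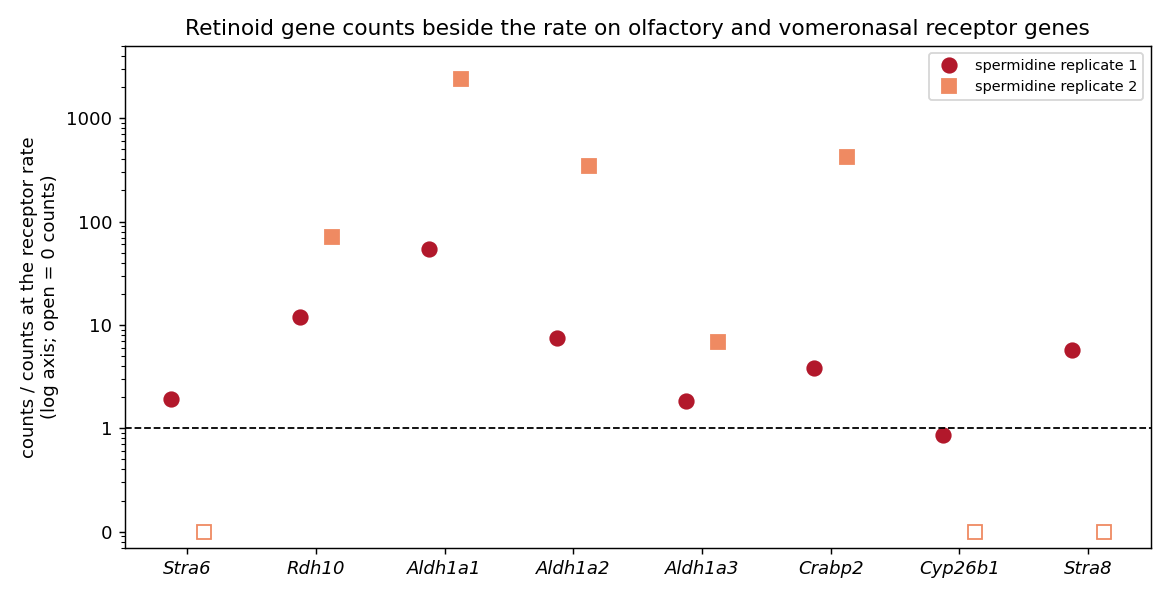
Counts of 8 retinoid genes in the spermidine libraries divided by the counts that the receptor rate of the same library would give on their countable bases (log axis; dashed line at 1; open symbols mark 0 counts). Aldh1a1 lies furthest above the line in both libraries, while Cyp26b1, with 9 counts against 10.4, lies below it in spermidine replicate 1.

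By edgeR's quasi-likelihood test, 5 of the 9 genes passed the low-count filter. Of these, 4 (Aldh1a1, Aldh1a2, Aldh1a3 and Crabp2) were called higher, where 24.8% of all tested genes were. The genes were listed with earlier results known, so here and below their calls describe the fit and are not support for a difference. The share over all tested genes is no test of an excess among them. Both spermidine CPM values lay above both control values for 4 of the 5, as for 36.1% of all tested genes. None was called lower, where 5.14% of genes that passed in both groups were, and 8.39% of genes that passed through the controls alone. The Aldh1a genes met the filter through spermidine libraries alone, the class in which 87.2% were called higher, so they had to differ to be tested. Crabp2 and Rdh10 passed in both groups, where 5.8% were called higher. The calls rest on particular libraries. Where a library was left out, the lone library of its group was assumed to vary like the pair of the other group, which alone supplied the spread. Without spermidine replicate 1, Aldh1a1 and Aldh1a2 were called and Aldh1a3 and Crabp2 were not. Without spermidine replicate 2 all 4 were called, and without control replicate 2 Crabp2 was not. Without control replicate 1 no gene of the whole table was called, although 1926 had an unadjusted p under 0.05.

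**Figure D3:**
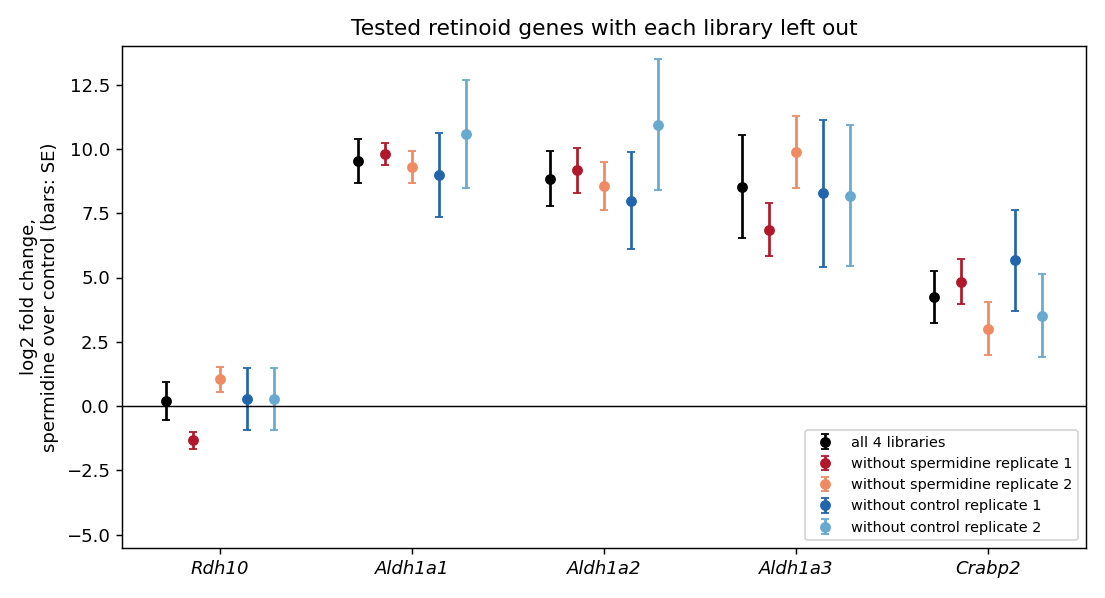
Fitted log2 fold changes (spermidine over control, edgeR; bars are SE) of the 5 tested retinoid genes with all 4 libraries and with each left out. Aldh1a1 stays between 8.97 and 10.57 and Rdh10 lies at -1.33 without spermidine replicate 1 and at 1.05 without spermidine replicate 2; values for genes with 0 control counts depend on the fit's prior count.

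Aldh1a1 and Aldh1a2 differed between the spermidine libraries by 0.57 and 0.65 on the log2 CPM scale (replicate 2 minus replicate 1, TMM scaling). Over all tested genes, 80% of which lay between -2.95 and 1.77, the median of this difference was -0.09. Rdh10 and Aldh1a3 were at -2.29 and -2.80, towards the low end of that range, and Crabp2 was at 1.84, just above it. The 5 tested genes thus did not move as a block between the spermidine libraries. The genes whose profile over the 4 libraries lay nearest to the mean profile of the 5 tested genes were Stk32a, Aqp5, Hoxc5, Acsbg1 and Pcdhgb7, with root mean square differences of 0.032 to 0.096 on the log2 CPM scale. The members themselves lay 0.892 to 2.524 from that mean, so it describes none of them closely.

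Summed levels of 7 of the 9 marker lists were higher in both spermidine libraries than in both controls, as the Aldh1a sum was. The sums of the germline list, which Tex19.1 dominated in the controls, and of the blood list were lower. Ovarian surface epithelium and mesothelium markers summed to 112 and 198 CPM in the spermidine libraries against 0.278 and 0.842 CPM in the controls, with 5 and 6 of 7 genes counted against 2 and 4. Granulosa markers summed to 528 and 5101 CPM against 4.3 and 7.43 CPM, with 6 and 5 of 8 genes counted against 4 and 5. Stroma and mural markers summed to 1692 and 6815 CPM against 51.9 and 87.3 CPM, with 8 of 8 counted in both spermidine libraries against 8 and 7. Theca and steroid markers summed to 2040 and 549 CPM against 151 and 123 CPM. Of these, Star and Cyp17a1 were called higher. Cyp11a1, with 234 and 138 counts in the spermidine libraries against 939 and 764, was not (log2 fold change 0.55 ± 0.60, SE). Endothelial markers summed to 117 and 96 CPM against 1.39 and 0.561 CPM. Oocyte markers summed to 123 and 803 CPM against 0.416 and 1.12 CPM, and pluripotency markers to 20.3 and 26.8 CPM against 0 and 0.561 CPM. The pluripotency sum came mostly from Esrrb in spermidine replicate 1 (13 and 1 counts) and from Pou5f1 in replicate 2 (2 and 42 counts). Esrrb has 1200 countable bases, and the receptor rate of replicate 1 was 3.19 counts per kb. Sox2 had 1 and 3 counts against 0 and 4. Only Pou5f1 of the 4 genes was tested.

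Germline markers summed to 166 and 252 CPM in the spermidine libraries against 278 and 267 CPM in the controls. Tex19.1, with 1955 and 1770 counts, made up most of the germline sum in the controls. Of the 3 germline markers tested, Tex19.1 was called lower in spermidine, and the 2 others, Dppa3 and Ifitm3, were called higher. Blood markers summed to 165 and 58.8 CPM in the spermidine libraries against 1585 and 1137 CPM in the controls. Plek, with 7913 and 5844 counts, made up most of the blood sum in the controls. Of the 8 blood markers only Plek, Gata2 and Tfrc were tested, and these were called lower. Ptprc had 3 counts, all in spermidine replicate 1, on 196 countable bases. Markers at 0 in every library were Amh and Amhr2 of granulosa cells, Hsd3b1 of theca, Pecam1, Cdh5 and Emcn of endothelium, Zp2 and Nobox of oocytes, Nanos3 of germ cells, Nanog of pluripotency, and Spi1 and Lyl1 of blood. Spi1 has 407 countable bases and the others at most 254. In bulk RNA, more cells of a type and more RNA per cell cannot be told apart. The part of these cell types in the levels of the retinoid genes was not tested.

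The rest of the retinoid pathway was read from a list of 42 genes, 13 of which could be tested. This list and the response list below were also drawn up with earlier results of these data known. The adjusted p-values of their genes therefore describe the fit and are not independent support for a difference. Of these, 4 rose, Adh1, Lrat and Ttr among them, and none fell, where 24.8% of all tested genes were called higher. Of the 11 that passed the filter in both groups, 2 rose, Adh1 among them, where 5.8% of all such genes were called higher. Lrat and Ttr met the filter through spermidine libraries alone, where 87.2% were called higher, so they had to be high in spermidine to be tested. A further 9 of the 42 had counts in spermidine replicate 1 alone and 8 had none, and 10 had fewer than 300 countable bases.

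Adh1, an alcohol dehydrogenase that also oxidises retinol, had 130 and 163 counts in the spermidine libraries, or 165 and 94.8 CPM, against 1 and 19 counts, or 0.139 and 2.67 CPM, in the controls. The spermidine libraries were high and the controls low, and unequal. Adh1 rose by 6.48 ± 0.92 on the log2 scale (SE; adjusted p = 0.00421, edgeR with Benjamini-Hochberg adjustment).

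Lrat, which stores retinol as esters, had 63 and 4 counts in the spermidine libraries against 0 and 2 in the controls. Its pooled CPM ratio was 192 (95% counting interval 51 to 1615; edgeR adjusted p = 0.00806). Nearly all of its spermidine counts came from replicate 1, where the receptor rate would give 17 counts on 5349 bases, and without that library the log2 fold change was 4.08 and not called (edgeR adjusted p = 0.132), against 7.62 with all libraries. With the receptor rate subtracted, Lrat no longer passed the filter. Ttr, the plasma carrier of retinol with its binding protein, had 6 and 9 counts in the spermidine libraries against 5 and 6 in the controls, and rose by 3.0 ± 0.84 (edgeR adjusted p = 0.0254). The receptor rate would give 3.86 counts on Ttr in spermidine replicate 1, and with that rate subtracted the log2 fold change was 2.77 (edgeR adjusted p = 0.0527). It was 2.97 without spermidine replicate 1 (edgeR adjusted p = 0.0876) and 3.12 without control replicate 2 (0.157), so the calls were lost at nearly the same fold. DESeq2 (adjusted p = 0.185) and limma-voom (0.0686) did not call Ttr either, and it was called in 5 of 14 alternatives.

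Of the short-chain dehydrogenase genes on the list, only Rdh11 and Dhrs9 were tested, and neither was called. Rdh11, a retinaldehyde reductase gene, had 35.6 and 54.7 CPM in the spermidine libraries against 115 and 113 CPM in the controls, and the log2 fold change was -1.23 ± 0.58 (adjusted p = 0.152, edgeR). Without spermidine replicate 2 it was called, at -1.83 ± 0.56 (adjusted p = 0.0149, edgeR). Dhrs9 had 21.6 and 7.56 CPM in the spermidine libraries against 40.5 and 54.3 CPM in the controls, with a log2 fold change of -1.84 ± 0.72 (adjusted p = 0.0895, edgeR). In spermidine replicate 1 Dhrs9 had 17 counts, where the receptor rate would give 8.44. Groups did not overlap for either gene, and both spermidine values lay below both control values for 30.6% of all tested genes.

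Of the 6 nuclear receptor genes, Rara, Rarg and Rxra were tested and none was called. Rara had 1.27 and 3.49 CPM in the spermidine libraries against 3.33 and 4.49 CPM in the controls. The value of spermidine replicate 1 was 1 count, where the receptor rate would give 2.77. Rxra had 15.2 and 2.33 CPM against 9.44 and 8.28 CPM, and Rarg had 40.6 and 0 CPM against 6.66 and 6.31 CPM, in both cases with the spermidine libraries on either side of the controls. Rxrg had 4 counts, all in spermidine replicate 1. Rarb and Rxrb had 0 counts in every library, and Rxrb has no base that another row does not share. Among coregulators, the corepressor gene Ncor1 had 11.4 and 5.82 CPM in the spermidine libraries against 27.8 and 25.7 CPM (log2 fold change -1.71 ± 0.78, edgeR adjusted p = 0.141). In spermidine replicate 1 Ncor1 had 9 counts, where the receptor rate would give 6.58. Ncoa3 had 21.6 and 20.4 CPM against 34.7 and 26.4 CPM, and Ncoa2 had 17.8 and 0 against 1.67 and 2.67, both without a call. Nrip1, a corepressor gene induced by retinoic acid, had 49 and 3 counts in the spermidine libraries against 2 and 0 and was not tested; the receptor rate would give 17.3 counts in spermidine replicate 1. The breakdown genes Cyp26a1 and Cyp26c1 had 7 and 4 counts, all in spermidine replicate 1.

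**Figure D4:**
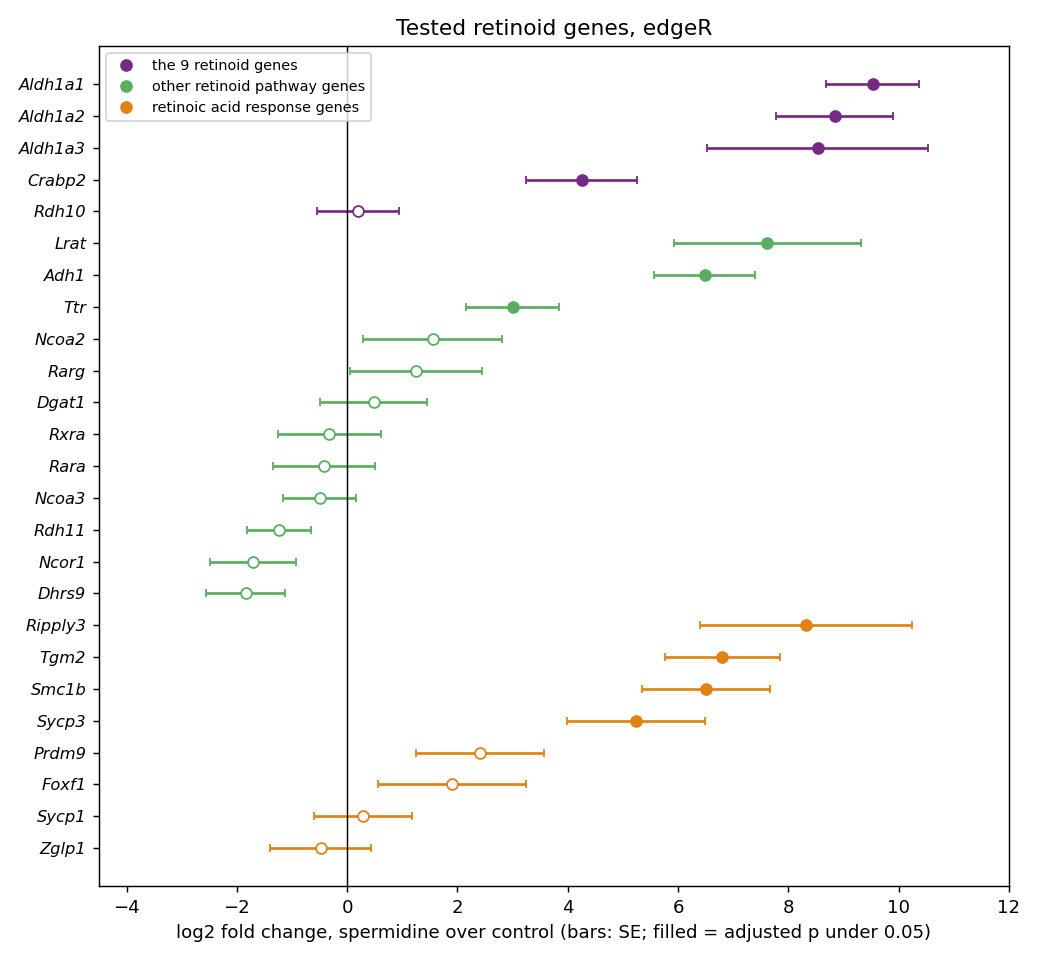
Log2 fold change (spermidine over control, edgeR; bars are SE) of the tested genes named in the text and Dgat1, among the 9 retinoid genes, the rest of the pathway and the response list; filled points have an adjusted p under 0.05. The Aldh1a genes have the highest values among the 9, and Rdh11, Ncor1 and Dhrs9 the lowest of the pathway list, without a call.

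The response list held 29 genes, 14 listed for somatic responses to retinoic acid and 15 for roles in germ cells and meiosis. Of these, 28 were matched and 8 could be tested. Tgm2, Smc1b, Sycp3 and Ripply3 rose and none fell, where 24.8% of all tested genes were called higher. Smc1b, Sycp3 and Ripply3 met the filter through spermidine libraries alone, where 87.2% were called higher, so they had to be high in spermidine to be tested. Of the 5 that passed in both groups, Tgm2, the tissue transglutaminase gene, rose, where 5.8% of all such genes were called higher. It had 60 and 628 counts in the spermidine libraries, or 76.2 and 365 CPM, against 12 and 20 counts, or 1.67 and 2.81 CPM, and rose by 6.80 ± 1.04 on the log2 scale (edgeR adjusted p = 0.00525).

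Among meiosis genes, Smc1b, a meiotic cohesin gene, had 43 and 34 counts in the spermidine libraries against 5 and 0 in the controls, and rose by 6.51 ± 1.16 (edgeR adjusted p = 0.00605). Sycp3, of the synaptonemal complex, had 4 and 18 counts against 3 and 0, a pooled CPM ratio of 41.9 (95% counting interval 12.6 to 219; edgeR adjusted p = 0.01). The receptor rate would give 12.9 counts on Smc1b and 2.67 on Sycp3 in spermidine replicate 1. Without that library the log2 fold changes were 5.97 for Smc1b and 5.73 for Sycp3, near the 6.51 and 5.24 with all libraries, but neither was called (adjusted p = 0.0814 and 0.0784, edgeR), in a fit that called 484 genes in all. Sycp3 was not called without control replicate 2 either (0.0766, edgeR), and with the receptor rate subtracted it no longer passed the filter, while Smc1b stayed at 6.51 (adjusted p = 0.00723). Ripply3, a transcriptional repressor gene, had 17 and 4 counts against 0 and 0, at least 40-fold higher in pooled CPM. The bound was 103-fold from spermidine replicate 1 alone and 11.1-fold from replicate 2 alone. The receptor rate would give 4.87 counts on Ripply3 in replicate 1, and the call was lost without that library (edgeR adjusted p = 0.0986).

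The other genes of the response list gave no call. Zglp1 had 5 and 3 counts in the spermidine libraries against 35 and 34 in the controls, Sycp1 3 and 7 against 33 and 16, Prdm9 28 and 2 against 19 and 19, and Foxf1 17 and 2 against 2 and 31. In CPM each of these had groups that overlapped. Kit, a germ cell and blood cell receptor gene, had 0 and 1 counts against 9 and 13, on 327 countable bases. Hoxa5 had 21 and 3 counts against 6 and 13, and Cdx1 and Rarres1 each had 20 counts, all in spermidine replicate 1, where the receptor rate would give 5.58 and 4.5. Dazl and Rec8 had 3 and 1 counts in all, on 432 and 168 countable bases. Dmc1, Sycp2 and Hormad1 had none, on 11, 1184 and 209 countable bases. With so few bases, the counts of Dmc1, Rec8 and Hormad1 do not show whether these genes were expressed.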

How the data were processed

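The deposited table holds raw counts, not normalised, for 106519 RefSeq transcript rows of 4 libraries, per the file headers. Exon lengths in bases (another deposited column) were used only to describe rows. Per the labels' protocols, DNase-treated RNA was enriched for mRNA and sequenced as paired reads of 150 bases. The submitters' processing notes name mm9, HISAT2 and DESeq2, without roles, and no counting program is stated. Of the rows, 86040 (80.8%) matched a gene in a RefSeq table of GRCm38, of which 88.5% fell within the GRCm38 span of the gene. Positions are therefore given as GRCm38. Rows were summed per gene.

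Countable bases are those that no other row covers on either strand. The 49975 rows with none held at most 0.0014% of any library's counts. Genes with several overlapping rows are therefore counted on few bases.

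Genes were filtered with filterByExpr (count minimum 10, total 15), scaled with TMM factors and compared in edgeR 4.0.16 (glmQLFit with legacy off, glmQLFTest) in R 4.3.3, with group as the only term, an adjusted p threshold of 0.05 and 2 residual degrees of freedom. CPM uses library totals, log2 CPM a prior count of 2. Pooled ratios carry exact Clopper-Pearson intervals, which, like floors of 3 counts, cover counting error only. The receptor rate is the count on 1279 olfactory and vomeronasal receptor genes of at least 300 countable bases over those bases.

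The members and lists were chosen with earlier results of these data known. Named genes are the 9, the called genes of the pathway and response lists and up to 12 of each list with at least 20 counts, and the 5 nearest profiles. A gene of the pathway list is not reported here. Marker lists are given as sums in place of their top genes. Alternatives covered scaling, filter, DESeq2 1.42.0, limma-voom (limma 3.58.1), a replicate block, each library left out, equal depth (554572 counts), the receptor rate subtracted and single rows. The legacy edgeR test was added after the data had been seen. Between replicates, chi-square over degrees of freedom was 32.2 in spermidine and 40.8 in control, so neither pair is a duplicate.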

Additional observations from a re-analysis of the deposited data

How the results depend on the processing

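With 2256 of all tested genes called, the number was 0 without a filter on low counts (edgeR gave 4255 at unadjusted p under 0.05), 275 with 1 CPM asked of all libraries, 839 at equal depth without AY036118 and 1491 with the receptor rate subtracted, and 0 to 3725 with a library left out. Of the 9 retinoid genes, 4 were called higher, and 0 with no filter, 0 with 1 CPM in all libraries (1 gene tested) and 0 to 4 with a library left out. Of the pathway list, 4 were higher, and 0 with no filter, 1 with 1 CPM in all libraries, 2 at equal depth, 2 with the receptor rate subtracted and 0 to 6 with a library left out, where 0 to 1 were lower. Of the response list, 4 were higher, and 0 with no filter, 1 with 1 CPM in all libraries, 2 at equal depth and 0 to 6 with a library left out. The cause of these shifts was not tested, though fewer genes were tested under the stricter filter and at equal depth. With 1 CPM in all libraries, 8 pathway and 4 response genes were tested. At equal depth 6 pathway genes were tested, and only 2 response genes, both of which were called.

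The log2 fold change of Rdh10 turned negative with no filter (-0.42), with limma-voom (-0.30), with the replicate block (-0.10) and without spermidine replicate 1 (-1.33), with a range of -1.33 to 1.05 over the libraries left out. No other gene followed over the alternatives reversed. Of the uncalled list genes, Rdh11, Dhrs9 and Ncor1 were followed and the others were not. Aldh1a1 lay between 8.97 and 11.62 over 15 alternatives and was called in 13, Aldh1a2 between 7.98 and 10.94, also in 13, and Crabp2 between 3.01 and 7.21 in 11 of 15. Aldh1a3 was called in 9 of 13. Replicate numbers share no stated source (correlation of same-numbered deviations -0.03), and with the block 1775 genes were called, 4 of the 9 among them, while Ttr lost its call. Depth limits the low genes: 3 counts are 3.81 and 1.75 CPM in the spermidine libraries, and 0.416 and 0.421 CPM in the controls.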
